A study of Mus musculus with 6 samples.

Results

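Miox, Hao2, Dao, Gatm, Acmsd, Keg1, Kap, Ggt1 and Napsa are 9 genes that the proximal tubule of the mouse kidney transcribes abundantly, most of them encoding metabolic enzymes. They were taken by gene symbol from the array annotation, 1 probe set per gene, and are 9 of 18238 genes tested. Their signal was compared between kidneys of mice given m4PTB and kidneys of mice given vehicle. All 9 passed the filter on dim probe sets, and each had a single probe set on the array.

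All mice were male BALB/c aged 10 to 12 weeks, and all had 26 min of ischemia of 1 kidney, then reperfusion, with removal of the opposite kidney. At 24 h after the injury they received either vehicle, which was 2-(hydroxypropyl)-b-cyclodextrin at 20% in water, or m4PTB at 100 mg per kg body weight, and the kidney was taken 12 h later, at day 1.5. m4PTB is methyl 4-(phenylthio)butanoate, known as an inhibitor of histone deacetylases. There were 3 vehicle arrays and 3 m4PTB arrays, 1 kidney RNA sample on each, and no array of uninjured kidney is analysed here, so every value below is from injured tissue. The kidneys had been picked for a similar degree of injury, by serum creatinine, blood urea nitrogen and Kim1 (Havcr1) message, which makes them a selected set.

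The proximal tubule reabsorbs most of what the glomerulus filters and carries out a large part of the metabolism of the kidney, in mitochondria, peroxisomes, cytosol and brush border. After ischemia its surviving cells are known to lose part of this differentiated programme and to regain it during repair. In a bulk sample of whole kidney, fewer proximal tubule cells and less message per cell cannot be told apart.

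The 9 genes have different tasks. Miox, myo-inositol oxygenase, opens the ring of inositol to give glucuronate. Hao2 is a peroxisomal oxidase of 2-hydroxy acids, and Dao is the peroxisomal oxidase of D-amino acids. Gatm makes guanidinoacetate from arginine and glycine, the first step of creatine synthesis. Acmsd is a decarboxylase of tryptophan breakdown that draws an intermediate away from quinolinate, and so from the synthesis of NAD from tryptophan. Keg1 is a kidney-expressed protein of the glycine N-acyltransferase family, Ggt1 is the brush border enzyme that cleaves the gamma-glutamyl bond of glutathione, and Napsa is an aspartic protease. Kap, kidney androgen-regulated protein, is not known as an enzyme, and the array annotation gives it no enzymatic function. The name metabolic enzymes is therefore wrong for Kap and loose for Napsa, a protease. For Keg1 it rests on the protein family.

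Promoter sequence is shown for the 4 members with 1 annotated start whose groups did not overlap, Miox, Hao2, Keg1 and Kap, and for Gatm, the member that was not lower after m4PTB. Each run is the 250 bases before the annotated start, in the direction of the gene, from RefSeq (GRCm38.p6). Capitals mark matches on either strand of 4 short motifs, which are AGGTCA, a core bound by many nuclear receptors, TATAAA, the TATA box, GGGCGG, the GC box, and CCAAT.
Miox, chr15:89334223-89334472, forward strand: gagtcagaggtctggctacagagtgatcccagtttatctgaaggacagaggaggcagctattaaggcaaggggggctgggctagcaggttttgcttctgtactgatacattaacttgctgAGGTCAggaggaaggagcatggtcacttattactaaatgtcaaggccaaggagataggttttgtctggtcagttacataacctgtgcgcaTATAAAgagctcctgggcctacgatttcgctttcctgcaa
Hao2, chr3:98893231-98893480, reverse strand: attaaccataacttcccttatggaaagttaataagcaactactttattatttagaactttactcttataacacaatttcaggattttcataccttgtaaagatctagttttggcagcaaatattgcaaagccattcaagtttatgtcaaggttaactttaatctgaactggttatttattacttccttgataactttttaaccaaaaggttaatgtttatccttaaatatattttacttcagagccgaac
Keg1, chr19:12695540-12695789, forward strand: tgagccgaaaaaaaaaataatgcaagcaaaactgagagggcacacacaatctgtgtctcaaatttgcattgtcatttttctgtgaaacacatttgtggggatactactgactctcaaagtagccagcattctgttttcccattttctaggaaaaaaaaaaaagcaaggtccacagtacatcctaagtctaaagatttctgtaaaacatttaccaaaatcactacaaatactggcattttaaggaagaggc
Kap, chr6:133853668-133853917, reverse strand: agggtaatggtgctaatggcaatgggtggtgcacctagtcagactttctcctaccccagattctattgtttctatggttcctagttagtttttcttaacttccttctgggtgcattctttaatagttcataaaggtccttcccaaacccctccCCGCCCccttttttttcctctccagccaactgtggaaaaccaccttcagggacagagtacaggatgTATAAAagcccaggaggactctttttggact
Gatm, chr2:122611278-122611527, reverse strand: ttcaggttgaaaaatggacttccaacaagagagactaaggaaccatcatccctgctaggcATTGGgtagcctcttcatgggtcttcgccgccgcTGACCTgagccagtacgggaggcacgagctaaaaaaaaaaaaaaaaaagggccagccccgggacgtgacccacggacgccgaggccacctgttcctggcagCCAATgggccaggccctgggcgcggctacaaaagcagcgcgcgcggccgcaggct

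The promoter table held 8 of the 9 genes, with 13 starts in all, of which 4 belonged to Ggt1 and 3 to Dao. The shares below are of 32851 promoter stretches of this length. The Hao2 stretch was poor in G and C, at 28.4% against a median of 52.4% over all stretches and 59.2% for Gatm.

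Each of the 4 motifs was found in some of the 8 genes, and none was found in all. The shares over all stretches are per start, and a gene with several starts has more chances of a match. AGGTCA was found in 5 genes, Miox, Dao, Gatm, Acmsd and Ggt1. That was 5 of the 13 starts, against 14.0% of all stretches. TATAAA lay at -40 in Miox and -31 in Kap, on the strand of the gene. In 1 start of Ggt1 it lay at -134, on the opposite strand and farther from the start. These were 3 of the 13 starts, against 12.4% of all stretches. GGGCGG was found in Dao, Kap and Ggt1 (4 of the 13 starts, 32.7% of all stretches). CCAAT was found in Dao, Gatm and Ggt1 (4 of the 13 starts, 33.8% of all stretches). Hao2 and Keg1 held none of the 4. No 2 of the motifs overlapped in these stretches, although 2 matches of CCAAT on opposite strands shared letters in Ggt1. A match shows that the letters are present and does not show that a factor binds there.

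**Figure D1:**
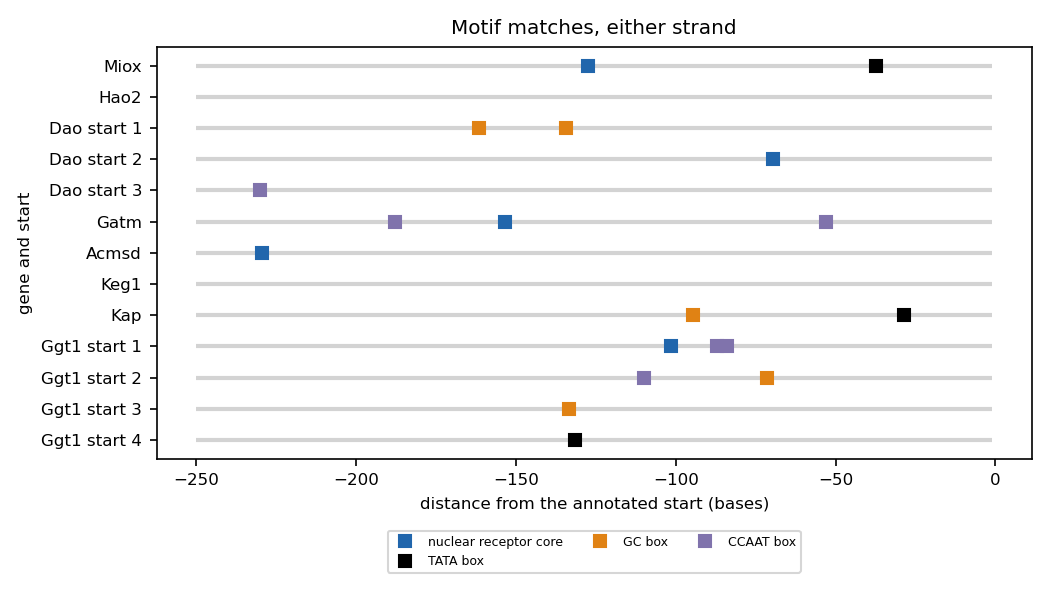
Matches of 4 motifs in the 250 bases before each annotated start of 8 of the 9 genes, by distance from the start in bases, with 1 line per start and 1 square per match on either strand. Hao2 and Keg1 hold none of the 4 motifs, and the TATA box lies nearest to the start in Kap and Miox.

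Signals are log2 values made by the RMA method, and no gene's signal is set against another's, since probe sets differ in brightness. All 9 genes were bright on all 6 arrays, above the bright end of the negative controls, taken as their 90th percentile on the same array (7.73 to 7.86). A set of 14 other proximal tubule markers also lay above that level on every array, so markers of the labelled tissue were present. Vehicle replicate 3 stood apart, with a mean correlation of 0.987 to the other arrays where the others had 0.993 to 0.994, and an array weight of 0.242. It also had the lowest Lcn2 signal, 9.35 against 10.44 to 11.26 on the other arrays.

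In kidneys of the m4PTB group, 8 of the 9 genes had a lower mean signal than in the vehicle group, by 0.07 to 0.32 on the log2 scale, and Gatm had a higher one by 0.07. The median difference of the 9 was -0.16, against 0.01 over all genes tested, of which 45.5% were lower. In 5 genes, Miox, Hao2, Dao, Keg1 and Kap, every m4PTB array lay below every vehicle array, against 5.21% of all genes tested. Among the 7420 genes above the bright end of the negative controls on all arrays, the median difference was 0.035. Of these, 34.1% were lower, and 4.99% were lower without overlap. With array medians subtracted the same 5 were apart and lower, but so were 12.08% of all genes, and 65.5% of all genes were then lower. Lower at an unadjusted p under 0.05 by limma were 3 members, Hao2, Miox and Dao, and 2.56% of all genes. None passed an adjusted p of 0.05, and 0 of all 18238 genes did (0%), with a smallest adjusted p of 0.495, while 1318 had an unadjusted p under 0.05, 852 higher and 466 lower. Subtracting array medians turned that split to 441 higher and 1064 lower. The 9 genes were measured in the same kidneys and several of them varied together, so these counts do not rest on 9 separate observations. The exact permutation test of 3 against 3 arrays, two-sided, cannot go below p = 0.1.

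**Figure D2:**
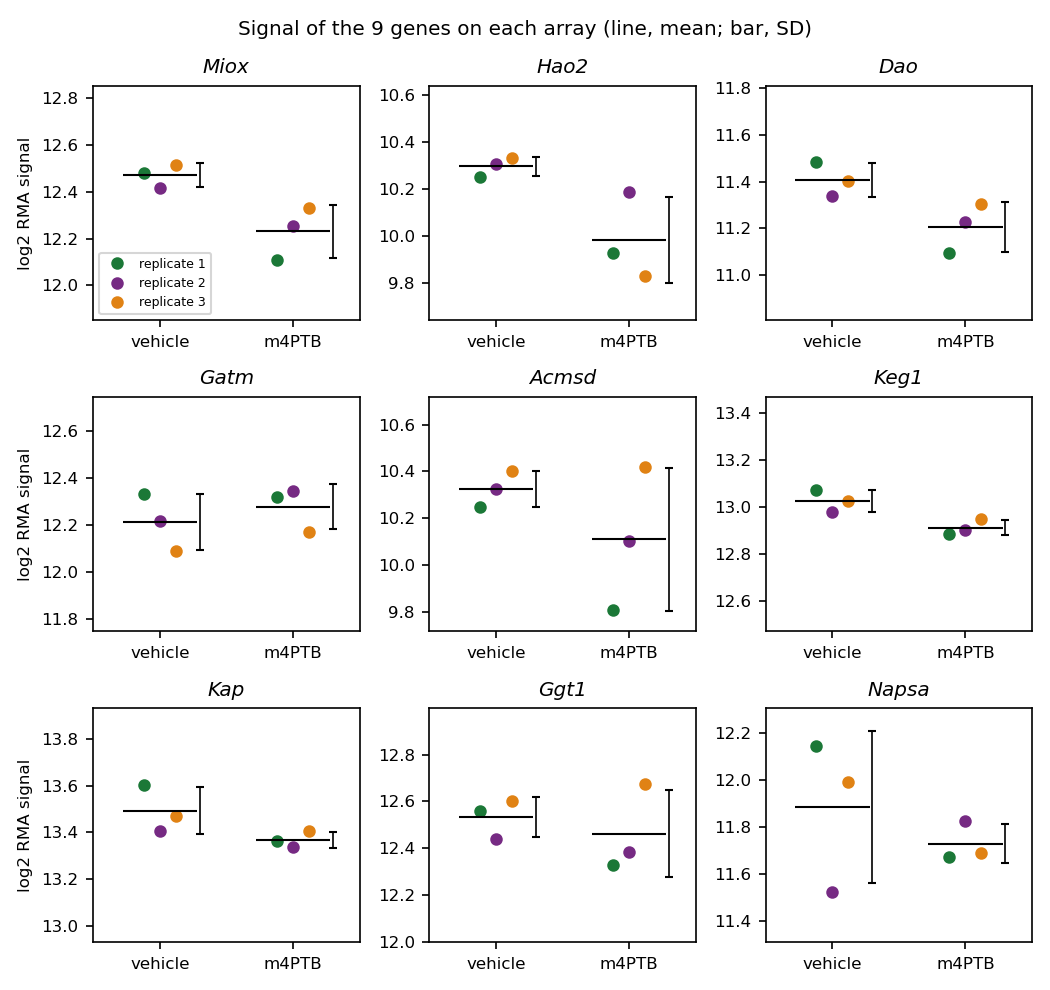
Log2 RMA signal (vertical axes, each 1 unit tall) of the 9 genes on the 3 vehicle and 3 m4PTB arrays, with 1 point per array coloured by replicate number, a line at the group mean and a bar of 1 SD on either side of it. In Miox, Hao2, Dao, Keg1 and Kap all m4PTB points lie below all vehicle points, while Gatm, Acmsd, Ggt1 and Napsa overlap.

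Hao2 had the largest difference of the 9 with all arrays in the fit. Without m4PTB replicate 3 it was -0.24, smaller than those of Acmsd (-0.37), Miox (-0.29) and Dao (-0.25), and without vehicle replicate 2 it was -0.31 beside -0.34 for Napsa. Its signal was 10.25, 10.30 and 10.33 on the vehicle arrays and 9.93, 10.19 and 9.83 on the m4PTB arrays, in replicate order. The vehicle arrays lay close together (10.30 ± 0.04, SD, n = 3) and the m4PTB arrays were more spread (9.98 ± 0.18, SD, n = 3), with replicate 2 nearest to vehicle. It differed by -0.32 (SE 0.10) on the log2 scale, or 19.6% less signal on the linear scale. It did not pass limma's test over all genes (adjusted p = 0.638), and the exact permutation test gave p = 0.1. Of all genes tested, 0.932% had a lower difference.

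Dao, the other peroxisomal oxidase, was at 11.48, 11.34 and 11.40 in vehicle kidneys and at 11.09, 11.23 and 11.30 in m4PTB kidneys. The groups were apart by 0.03, between vehicle replicate 2 and m4PTB replicate 3. It differed by -0.20 (SE 0.08; limma adjusted p = 0.681), from 11.41 ± 0.07 to 11.21 ± 0.11 (SD, n = 3 each).

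Miox signal was 12.48, 12.42 and 12.52 in vehicle kidneys and 12.11, 12.25 and 12.33 in m4PTB kidneys. No m4PTB array reached the lowest vehicle array, and the gap between groups, 0.08, was the widest of the 9. It differed by -0.24 (SE 0.08), or 15.3% less signal, with a limma adjusted p of 0.663. Its 95% interval ran from -0.42 to -0.06.

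Keg1 and Kap did not overlap between groups either, with smaller differences. Keg1 was at 13.07, 12.98 and 13.03 in vehicle kidneys and at 12.89, 12.90 and 12.95 in m4PTB kidneys, a log2 difference of -0.11 (SE 0.07; limma adjusted p = 0.695). Kap was at 13.60, 13.41 and 13.47 and at 13.36, 13.34 and 13.41, a log2 difference of -0.12 (SE 0.08; limma adjusted p = 0.699). For Kap the lowest vehicle value, 13.407, and the highest m4PTB value, 13.406, were 0.0011 apart, and its place among the 5 rests on that gap. The difference of Kap was -0.07 without vehicle replicate 1. After cyclic loess normalization it was -0.07 for both genes, and with array medians subtracted it was -0.17 for Keg1 and -0.18 for Kap.

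Acmsd, Ggt1 and Napsa had lower means in m4PTB kidneys, but single arrays set the size of the difference. Acmsd was at 10.25, 10.33 and 10.40 in vehicle kidneys and at 9.81, 10.10 and 10.42 in m4PTB kidneys, so that m4PTB replicate 3 was the highest of all 6. Its difference of -0.21 (SE 0.14; limma adjusted p = 0.710) became -0.06 without m4PTB replicate 1 and -0.37 without m4PTB replicate 3.

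Ggt1 showed the same order among the m4PTB arrays, and was at 12.56, 12.44 and 12.60 in vehicle kidneys and 12.33, 12.38 and 12.67 in m4PTB kidneys. Its difference was -0.07 (SE 0.10; limma adjusted p = 0.843), and it was -0.01 without m4PTB replicate 1, -0.03 without m4PTB replicate 2, -0.04 without vehicle replicate 3, -0.12 without vehicle replicate 2 and -0.18 without m4PTB replicate 3. Cyclic loess gave -0.04 and subtracting array medians gave -0.13. Its interval, -0.31 to 0.17, covers differences in either direction.

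Napsa varied most among vehicle kidneys, at 12.14, 11.52 and 11.99, and was at 11.67, 11.82 and 11.69 in m4PTB kidneys. The lowest of the 6 values was vehicle replicate 2. The difference of -0.16 (SE 0.15; limma adjusted p = 0.769) was -0.03 without vehicle replicate 1, -0.10 without vehicle replicate 3 and -0.34 without vehicle replicate 2.

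Gatm was the exception. Its signal was 12.33, 12.22 and 12.09 in vehicle kidneys and 12.32, 12.35 and 12.17 in m4PTB kidneys, with the groups mostly overlapping. It differed by 0.07 (SE 0.09; limma adjusted p = 0.833), with an interval from -0.14 to 0.27. Without vehicle replicate 3, its lowest array, the difference was 0.004, so the higher mean rested on that array, and subtracting array medians gave 0.01. It was 0.03 without m4PTB replicate 2, 0.12 when vehicle replicate 1 was left out and 0.12 when m4PTB replicate 3 was. Whether Gatm differs in its response from the other 8 was not tested.

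**Figure D3:**
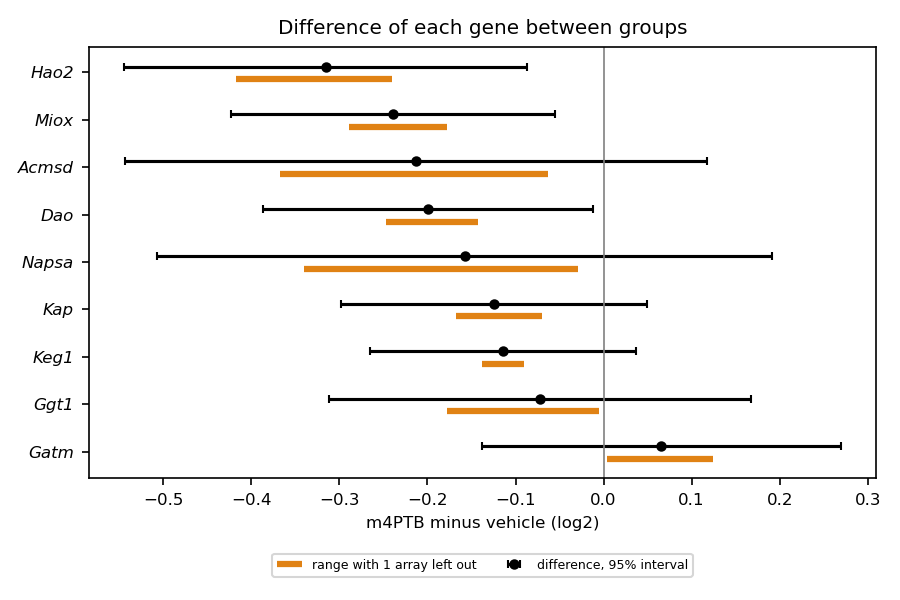
Log2 difference of m4PTB minus vehicle (horizontal axis) for each of the 9 genes, with its 95% interval from limma in black and the range of the difference when 1 of the 6 arrays is left out in orange. The intervals of Hao2, Miox and Dao, unadjusted for the number of genes, end below 0, and the orange ranges of all genes but Gatm lie below 0.

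Leaving out the array that stood apart, vehicle replicate 3, changed little for the members that did not overlap. Hao2 was then -0.30, Miox -0.22, Dao -0.20, Kap -0.14 and Keg1 -0.11, and 8 of the 9 were again lower, with a median of -0.14. In each of the 6 fits that left out 1 array, 8 of the 9 were lower, and the median ran from -0.21 without vehicle replicate 2 to -0.09 without vehicle replicate 1. At an unadjusted p under 0.05 by limma, Hao2 stayed with any array left out, Miox was lost without m4PTB replicate 1, and Dao was lost without vehicle replicate 1, vehicle replicate 3, m4PTB replicate 1 or m4PTB replicate 2.

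Most of the 9 genes varied together between arrays, with Gatm and, within groups, Hao2 as exceptions. Over the 6 arrays, Pearson's r was above 0 for 28 of the 36 pairs of members, and for 27 of the 28 pairs that leave out Gatm, with medians of 0.61 and 0.65. These values describe 6 arrays that share one normalization and include the difference between groups. With each group's mean removed, 24 of the 36 pairs were above 0, with a median of 0.32. Of the 21 pairs without Gatm and Hao2, 20 were above 0 (median 0.71). Those 2 genes were set aside on these same correlations, so that count describes the remaining pairs only. The closest pairs were Miox with Dao and Keg1 with Dao, with r = 0.96 for each. Kap was most like Keg1 (0.94), and Acmsd was most like Ggt1 (0.85). With group means removed, r was 0.89 for Miox with Dao and for Keg1 with Dao. It was then 0.91 for Keg1 with Kap, 0.90 for Miox with Acmsd and 0.85 for Acmsd with Ggt1. Napsa was most like Kap (0.75), and Hao2 was most like Miox (0.69). That value rested on the difference between groups, since with group means removed r was -0.07 for Hao2 with Miox and below 0 for 6 of the 7 pairs of Hao2 with members other than Gatm. For Gatm the highest r with any other member was 0.07, and the lowest was -0.72, with Acmsd.

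Averaged over the 9 genes, the deviation from each gene's mean was 0.13, -0.002 and 0.10 on the vehicle arrays and -0.16, -0.04 and -0.02 on the m4PTB arrays. All 9 genes lay above their own mean on vehicle replicate 1, and 1 of 9, Gatm, did on m4PTB replicate 1. Vehicle replicates 1 and 3 stood highest and m4PTB replicate 1 lowest, while vehicle replicate 2 lay close to the other m4PTB arrays.

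Injury markers were set beside this order of arrays. Havcr1 (Kim1), a membrane protein induced in injured proximal tubule, was at 11.61, 12.03 and 11.50 in vehicle kidneys and at 11.97, 11.67 and 11.54 in m4PTB kidneys. It differed by 0.01 (SE 0.16). The kidneys had been picked for similar injury partly by this message, so its difference cannot show whether injury was equal between groups. In each group the array with the most Havcr1, vehicle replicate 2 and m4PTB replicate 1, had the lowest average of the 9 genes. Lcn2, which encodes NGAL, was at 10.44, 10.58 and 9.35 and at 11.26, 10.63 and 10.46, highest on m4PTB replicate 1. Lcn2 differed by 0.66 (SE 0.33), with a limma adjusted p of 0.685. Its groups overlapped, and its lowest array was vehicle replicate 3, the array that stood apart. Over 13 markers of injured tubule, 11 were higher and 2 lower in m4PTB kidneys, where 45.5% of all genes tested were lower. The mean signal of the 13 ranged from 8.65 to 9.15 on vehicle arrays and from 9.02 to 9.35 on m4PTB arrays. Of the 13, 4 lay above the bright end of the negative controls on no array. The part of injury in the differences of the 9 genes was not tested.

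**Figure D4:**
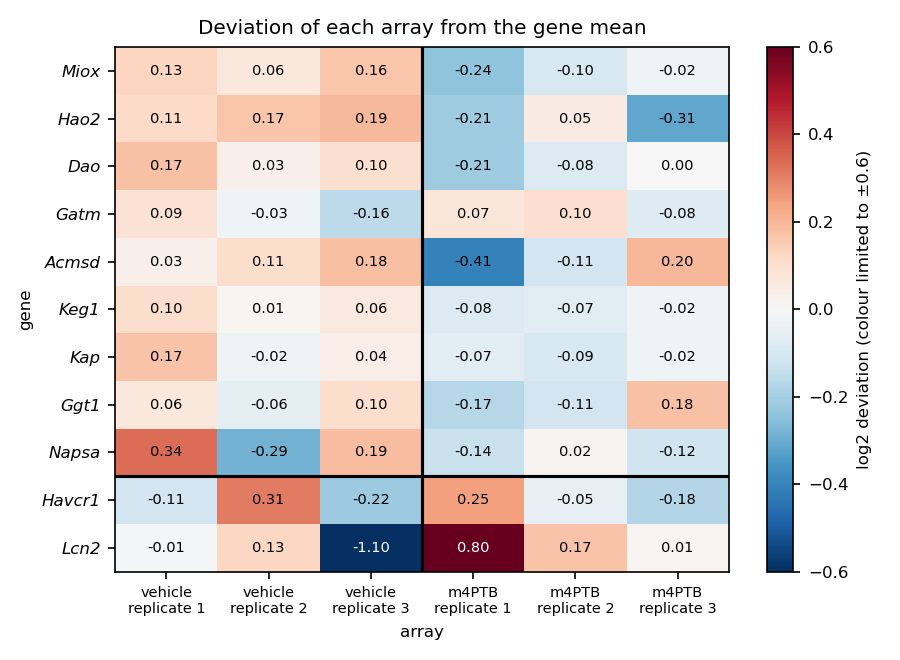
Deviation of each array from the gene's mean over the 6 arrays, in log2 units (colour and printed number, colour limited at 0.6), for the 9 genes and, below the line, for Havcr1 and Lcn2. Vehicle arrays are left of the line, where vehicle replicate 1 is above the mean in all 9 genes, and m4PTB replicate 1 is below it in all but Gatm.

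Over 14 other markers of the proximal tubule, all bright, the median difference was -0.05, with 10 lower. Slc22a8, an organic anion transporter, differed by -0.32, and Slc7a13, Slc27a2, Slc22a6 and Slc34a1 by -0.20, -0.12, -0.10 and -0.07. The 4 that were higher were the endocytic receptors Lrp2 (0.02) and Cubn (0.03), the glucose transporter Slc5a2 (0.03) and Slc5a12 (0.21). The mean signal of the 14 ran from 12.08 to 12.13 on vehicle arrays and from 12.00 to 12.06 on m4PTB arrays. Other nephron segments also had lower medians, of -0.13 over 7 genes of the loop of Henle, -0.11 over 4 of the distal convoluted tubule and -0.10 over 9 of the collecting duct. Lower means were found in 7 of 7, 3 of 4 and 9 of 9 of these, against 45.5% of all genes. A lower signal was thus not particular to the proximal tubule. All 8 macrophage markers were higher, by a median of 0.17, where 45.5% of all genes were lower. The mean signal of the 8 was 7.52 to 7.95 on vehicle and 7.80 to 8.07 on m4PTB arrays. Of these, 3 lay above the bright end of the negative controls on no array. Neutrophil markers (2 tested) and T and NK cell markers (5 tested) lay above it on none. The part of other cell types in the differences of the 9 genes was not tested.

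Around the 9 genes, 9 lists of pathway partners and regulators held 182 tested genes, of which 107 had a lower mean after m4PTB, against 45.5% of all genes, with a median difference of -0.02. None had an adjusted p under 0.05. At an unadjusted p under 0.05 there were 12, 6 higher and 6 lower, against 7.23% of all genes in either direction. The lists were chosen with earlier results of these data known, and their counts describe them only.

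Among genes of tryptophan breakdown and NAD synthesis, the pathway of Acmsd, 13 of 24 were lower, with a median of -0.04 (-0.08 without m4PTB replicate 3, -0.02 without m4PTB replicate 1, -0.02 without vehicle replicate 1 and -0.09 with array medians subtracted). The 4 genes of smallest p were enzymes of that route, and all had lower means. Qprt, which turns quinolinate into a precursor of NAD, was at 9.21, 9.07 and 9.19 in vehicle and 8.93, 8.96 and 8.997 in m4PTB kidneys, with no overlap. Kmo, the kynurenine hydroxylase, was at 10.02, 9.82 and 9.90 and at 9.72, 9.66 and 9.76, also with no overlap. Haao, which makes the shared precursor of quinolinate and of the product of Acmsd, differed by -0.22, and Aadat, a kynurenine aminotransferase, by -0.57 (SE 0.19; limma adjusted p = 0.674). Values of Aadat overlapped between groups, with vehicle replicate 2 at 9.92 below m4PTB replicate 3 at 10.01. Kynu, which cleaves kynurenine, differed by 0.03 and Aldh8a1, the dehydrogenase that follows Acmsd, by -0.08.

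Among peroxisomal oxidases and their partners, 20 of 27 genes were lower, with a median of -0.05 (-0.11 with array medians subtracted). Pxmp2, a channel of the peroxisomal membrane, differed by -0.16 and did not overlap between groups, with a signal above the bright end of the negative controls on 3 arrays. The oxidase Acox2 (-0.25) and the thiolase Acaa1b (-0.20), both of peroxisomal lipid breakdown, overlapped. Catalase (Cat), which removes the hydrogen peroxide that Hao2 and Dao make, differed by -0.02. Ddo, the oxidase of acidic D-amino acids, differed by -0.05, and Srr, which makes D-serine, by 0.08. Xdh, a purine oxidase of the cytosol, was higher by 0.28 with no overlap (limma adjusted p = 0.679). Hao1, the liver relative of Hao2, did not pass the filter on dim probe sets.

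The pathways of Miox and Gatm had medians near 0. Of 15 genes of inositol and glucuronate metabolism 10 were lower, with a median of -0.01 that ran from -0.05 without m4PTB replicate 3 to 0.01 without m4PTB replicate 1, and was -0.07 with array medians subtracted. Akr1a1, the reductase that acts on the glucuronate made by Miox, differed by -0.08 with no overlap between groups, and Isyna1, which makes inositol, by -0.09, while Impa1, which frees it from its phosphate, differed by 0.10 and Ugp2, which makes UDP-glucose, by 0.16. Of 15 genes of creatine and guanidino metabolism 7 were lower, with a median of 0.005. That median was below 0 without vehicle replicate 1 (-0.05) or any of m4PTB replicates 1 to 3 (-0.01, -0.03 and -0.03), and it was -0.05 with array medians subtracted and -0.03 after cyclic loess. Gamt, which completes creatine synthesis, differed by 0.03 and the creatine transporter Slc6a8 by 0.03. Ass1 and Asl, which together make arginine, differed by -0.15 and -0.18, Agmat, an arginase-family protein with a signal above the bright end of the negative controls on 1 array, by 0.09, and Ddah1, which breaks down methylated arginine, by -0.11 with no overlap.

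Of 20 androgen-regulated or male-biased kidney genes, the list around Kap, 12 were lower, with a median of -0.08. The cytochromes Cyp2e1 and Cyp4b1 differed by -0.26 each and Cyp2d9 by -0.40, and all 3 overlapped between groups. The median was -0.21 without m4PTB replicate 3 and 0.02 without m4PTB replicate 1, and it was 0.01 without either vehicle replicate 1 or m4PTB replicate 2. It was -0.13 with array medians subtracted and with array weights.

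For Keg1, 14 of 20 genes of glycine conjugation and acyl-CoA activation were lower, with a median of -0.06 (-0.11 without vehicle replicate 2, -0.10 without m4PTB replicate 3, -0.11 with array medians subtracted and -0.03 with array weights). Its relative Glyat differed by 0.08 and Acsm2, a medium-chain acyl-CoA synthetase, by -0.13, as did Acsm1 by -0.17, while Acsf2, an acyl-CoA synthetase of mitochondria, differed by 0.36 with overlap. Of the glycine genes, Dmgdh, which breaks down dimethylglycine, differed by -0.17 and Shmt1, which interconverts serine and glycine, by 0.13. For Ggt1, 16 of 24 genes of the glutathione cycle were lower, with a median of -0.04 (-0.01 without vehicle replicate 1, -0.02 without m4PTB replicate 2, -0.10 with array medians subtracted, -0.03 after cyclic loess and -0.02 with array weights). The peroxidase Gpx1 (-0.15) and the transferase Gstt2 (-0.16) did not overlap between groups, while the transferase Gsta2 (0.35) and the aminopeptidase Lap3 (-0.16) did. The peptidases that act after Ggt1, Dpep1 and Anpep, differed by -0.04 and -0.03, Gclc, the catalytic subunit of the first step of glutathione synthesis, by 0.06, and Ggct and Oplah, which recycle the glutamyl group, by -0.11 and 0.02. The signal of Ggct lay above the bright end of the negative controls on no array.

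Of 21 lysosomal and secreted proteases and partners, the list around Napsa, 12 were higher, with a median of 0.02. The direction of that median depended on the scaling and the filter, at -0.04 with array medians subtracted, -0.01 after cyclic loess and -0.005 with the filter on dim genes raised, and it was 0.06 without vehicle replicate 1 and 0.003 without vehicle replicate 3. The 4 genes of smallest p all had higher means. Ctsl (0.27) and Ctsc (0.21), both cathepsins, and Scpep1 (0.21), a carboxypeptidase, were higher with no overlap, and so was Bace2 (0.22), whose signal lay above the bright end of the negative controls on no array. Of all genes tested, 9.38% were higher with no overlap. Cst3, cystatin C, an inhibitor of cathepsins, went the other way with no overlap (-0.17), and it was named after its value was seen. Cathepsin D (Ctsd), an aspartic protease like Napsa, differed by 0.06, and Ctsh and Lgmn by -0.06 and 0.05.

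Of 19 regulators of proximal tubule transcription, 7 were lower, with a median of 0.02 that was -0.04 with array medians subtracted, 0.001 without m4PTB replicate 3 and 0.04 without m4PTB replicate 1. Those of smallest p were Pax2 (-0.13), Cebpa (0.09), Nr1h4 (0.08) and Esrrg (-0.10), and Cebpa alone did not overlap between groups, with a signal above the bright end of the negative controls on no array. Hnf4a differed by 0.03 (SE 0.07) and Ppara by 0.09 (SE 0.15).

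**Figure D5:**
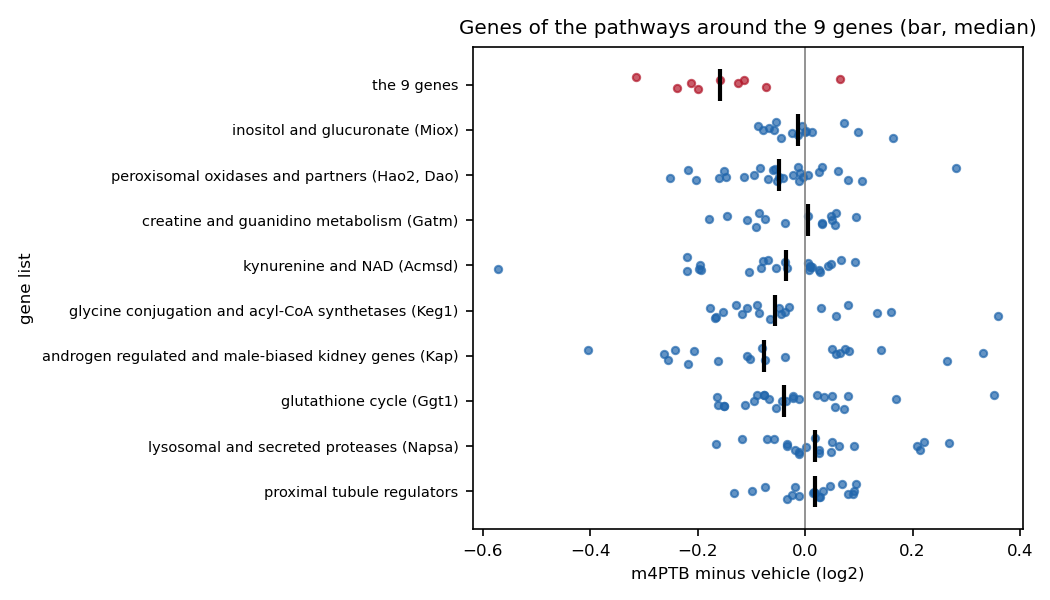
Log2 difference of m4PTB minus vehicle (horizontal axis) for the 9 genes, in red, and for the genes of the 9 lists around them, in blue, with 1 point per gene and a black bar at each median. The median of the 9 genes is -0.16 and those of the lists lie between -0.08 and 0.02.

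Among 7411 other genes that lay above the bright end of the negative controls on all arrays, those whose pattern over the 6 arrays was most like the average of the 9 members were Pcbd1 (r = 0.99), Scd2 (0.99), Immt (0.99), Aldoc (0.98), Insig1 (0.98) and Nfkbib (0.98). Pcbd1 encodes a recycling enzyme of tetrahydrobiopterin, Scd2 is a fatty acid desaturase and Insig1 a regulator of sterol synthesis. Immt organises the inner mitochondrial membrane, Aldoc is an aldolase and Nfkbib an inhibitor of NF-kappaB. They were found by a search over all those genes with 6 arrays, and the r describes these arrays only. Scd2 differed by -0.56 (SE 0.15; limma adjusted p = 0.598) with no overlap, Insig1 by -0.43 with overlap, Aldoc by -0.34, Immt by -0.06 and Nfkbib by -0.07. Pcbd1 was at 11.99, 11.80 and 11.89 in vehicle and 11.62, 11.77 and 11.78 in m4PTB kidneys, a difference of -0.17 (SE 0.08; limma adjusted p = 0.685).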

How the data were processed

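Whole-kidney total RNA, 10 ug per sample per the labels, was measured on Affymetrix Mouse Gene 1.0 ST arrays, per the file headers. The authors deposited log2 signals; the submitters' processing notes name RMA and Affymetrix Expression Console 1.1. As RMA equalises the distributions of arrays, it hides a change shared by most genes. Gene names came from the annotation of the deposited full table, other columns of which (6 signal columns whose names match no label) were not used. Of 35556 probe sets, 25004 had 1 symbol, 2 had several and 10550 had none. For 22267, accessions were found in RefSeq's gene table (GRCm38.p6), and 2268 symbols were updated.

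Probe sets without a single symbol, negative controls among them, were left out. A further filter asked for a log2 signal of 5 or more on 3 or more arrays, which 20968 probe sets met, and the one of highest mean stood for its gene (18238 genes). The difference, m4PTB minus vehicle, came from lmFit and eBayes of limma 3.58.1 (R 4.3.3) without covariates, with Benjamini-Hochberg adjustment over all genes and a threshold of 0.05. The fit was tested on simulated data. An exact permutation test, two-sided, was run on single values (SciPy 1.17.1). Arrays have no sequencing depth, and their number limits the precision. Nothing in the labels says that replicates came from separate animals, and p-values measure only the spread between samples, technical spread included.

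The members, lists and tests were chosen with earlier results of these data known, and the motifs after the promoter sequences had been seen. Named were all members, fixed pathway partners, up to 4 genes of smallest p per list, the 6 genes most like the members, Havcr1 and Lcn2, of which some are not reported here. Other normalizations, filters, probe set summaries, variance models, a replicate block and leaving out each array were tried.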

Additional observations from a re-analysis of the deposited data

How the results depend on the processing

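Precision was limited by the 3 arrays of each group. No gene passed an adjusted p of 0.05 in any of the 14 alternatives, and 8 of the 9 members were lower in all of them. The count at an unadjusted p under 0.05, 1318 over all genes, was 772 when only genes above the negative controls' 90th percentile were tested, which are fewer. It was 843 without m4PTB replicate 1, 861 without m4PTB replicate 2 and up to 1807 with another array left out, vehicle replicate 2. The members' median was -0.21 with each array's median subtracted, -0.14 after cyclic loess and -0.12 with array weights. Differences ran from -0.42 to -0.23 for Hao2, -0.30 to -0.18 for Miox and -0.26 to -0.14 for Dao, with adjusted p from 0.423 to 0.889 over these 3. Napsa was -0.01 with array weights. With array medians subtracted, the medians of the creatine, protease and regulator lists turned from above to below 0. Among the list medians, 11 of the alternative values moved by more than the spread between replicates, 6 of them with array medians subtracted. With the replicate number as a replicate block, 1105 genes had an unadjusted p under 0.05. Same-numbered arrays did not deviate together (r of -0.13, -0.05 and -0.08), so the numbers were not taken as pairs, and none of the 3 vehicle arrays correlated best with the m4PTB array of its number.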
